A study of Mus musculus with 8 samples.

Results

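The lysyl oxidase family was followed in ID8 IP2 cells, a line of mouse ovarian surface epithelial cancer cells selected by passage through mice, with and without the intracellular domain of Notch3. Its 5 genes, Lox, Loxl1, Loxl2, Loxl3 and Loxl4, were taken by gene symbol from the 23284 symbols counted, and all 5 were expressed strongly enough to be tested. Control cells carried an empty pCCL lentivirus. In Notch3IC cells the vector also encoded codons 1664 to 2318 of Notch3, its intracellular domain, with an HA tag, and GFP behind an IRES. Each of Sets 1 to 4 is an independent infection that gave 1 Control and 1 Notch3IC line, so there were 4 libraries per condition and 8 in all, from 1 parental line. Both conditions shared a luciferase-mCherry lentivirus and DMEM with serum and ITS supplement. From testing after the experiments, the paper proposes that mycoplasma was present in every ID8 IP2 line. Libraries are named below by condition and set. Control libraries held 19013578 to 28208072 counts on genes (median 24255880) and Notch3IC libraries 15524262 to 27107061 (median 24162245.5). The 5 genes took 0.105% to 0.135% of the counts in Control and 0.122% to 0.187% in Notch3IC.

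Lysyl oxidases are secreted, copper-dependent amine oxidases. They turn lysine and hydroxylysine side chains of collagen and elastin into aldehydes, which then condense into the cross-links that give these fibers their strength. Lox and Loxl1 have variable amino-terminal regions that are cut off outside the cell, whereas Loxl2, Loxl3 and Loxl4 carry scavenger receptor cysteine-rich domains before the catalytic domain. In tumors the family is best known for collagen cross-linking, matrix stiffening and the preparation of metastatic sites.

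The stretch that binds copper is shared by the whole family, so it is shown first, for 4 of the 5 genes; the sequence of Lox is not shown here. Each line is the sense strand of the coding sequence, 5′ to 3′, 33 bases long, from the transcripts of GENCODE release M21 on GRCm38, with the 4 histidine codons in capitals. Each stretch crosses 1 exon junction, and its codons are counted from the start codon.
Loxl1: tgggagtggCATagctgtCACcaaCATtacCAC
Loxl2: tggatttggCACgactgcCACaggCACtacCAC
Loxl3: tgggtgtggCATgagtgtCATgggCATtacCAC
Loxl4: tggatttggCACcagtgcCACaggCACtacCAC

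The Loxl1 stretch is codons 476 to 486, at chr9:58293720-58294381 on the minus strand, in exons 3 and 4 of 7. In Loxl2 it is codons 622 to 632, at chr14:69682316-69689037 on the plus strand, in exons 10 and 11 of 14. In Loxl3 it is codons 602 to 612, at chr6:83049995-83050125 on the plus strand, in exons 10 and 11 of 14. In Loxl4 it is codons 607 to 617, at chr19:42598807-42599899 on the minus strand, in exons 11 and 12 of 15. Each interval includes the intron between these exons. Among the 4 stretches shown, those of Loxl2 and Loxl4 differed at 2 bases and the other pairs at 8 to 12. The transcripts of any 2 members of the family shared no identical run over 32 bases, against sequencing reads of 100 bases.

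Loxl1 and Loxl3 were higher in Notch3IC cells, and Lox, Loxl2 and Loxl4 were not called. Calls required an adjusted p under 0.1 in edgeR's quasi-likelihood test together with a log2 fold change of 1 or more in size. Higher calls fell on 3.4% and lower calls on 0.74% of the 12430 genes tested, against 2 and 0 of the 5 lysyl oxidases. The 5 genes were chosen with earlier results of these data known, so these shares are no test of the family. The median log2 fold change was 0.53 over the 5 genes and -0.01 over all genes tested. With the set as a further term in the fit, 5.19% of all genes were called higher and 2.53% lower, and the same 2 lysyl oxidases were called. Their edgeR adjusted p was then 0.0269 for Loxl1 and 0.0332 for Loxl3. The fits below with a library or set left out had condition as the only term. More transcript per cell and more cells that make the transcript cannot be told apart in these bulk libraries.

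Loxl1, an oxidase known for the upkeep of elastic fibers, was on average the least abundant member in Control cells. Control Sets 1 to 4 had 365, 247, 466 and 181 normalized counts, and Notch3IC Sets 1 to 4 had 1822, 559, 2083 and 1640. Each Notch3IC value exceeded each Control value, as in 7.08% of all genes tested, and the Notch3IC library of Set 2 was the lowest of its group. Control averaged 315 ± 126 and Notch3IC 1526 ± 670 (SD, n = 4 each). Loxl1 rose by a log2 fold change of 2.28 (standard error 0.44, 95% interval 1.28 to 3.28, edgeR adjusted p = 0.0356). It ranked 228 of the genes tested by p, and 1.71% of them had a larger change in size. Within Sets 1 to 4 the Notch3IC level was 4.99, 2.26, 4.47 and 9.02 times that of the matched Control. The call was lost in 3 fits with 1 library left out: leaving out Control Set 3 gave an adjusted p of 0.103, Control Set 4 0.121 and Notch3IC Set 4 0.109. Without the whole of Set 3 or Set 4 it was 0.246 or 0.323. The log2 fold change of Loxl1 ran from 2.05 to 2.55 over the 12 fits with a library or set left out. The fits without Set 3 and without Set 4 called almost nothing in edgeR, the first 1 gene of 12418 (Tspan18, named with its value known) and the second 0 of 12378, while 1101 and 1011 genes had an unadjusted p under 0.05, so the loss of a call there is not particular to Loxl1.

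Loxl3, which carries scavenger receptor domains and is needed for palate and spine development in mice, also rose. Control libraries of Sets 1 to 4 held 1200, 927, 1035 and 917 normalized counts, and Notch3IC libraries 3636, 1199, 2897 and 3016. The groups overlapped at a single point, where the Notch3IC library of Set 2, at 1199.34, lay just under the Control library of Set 1, at 1200.01. Control averaged 1020 ± 132 and Notch3IC 2687 ± 1043 (SD, n = 4 each), which gave a log2 fold change of 1.40 (standard error 0.30, 95% interval 0.72 to 2.08, edgeR adjusted p = 0.0451). Within Sets 1 to 4 the Notch3IC level was 3.03, 1.29, 2.80 and 3.29 times that of the matched Control. Leaving out Control Set 3 or Set 4 raised the adjusted p of Loxl3 to 0.139 or 0.153, and leaving out Notch3IC Set 3 or Set 4 to 0.120 or 0.144. Dropping a whole set gave 0.10003 for Set 1, 0.323 for Set 3 and 0.406 for Set 4. Over all fits that left out a library or a set, its log2 fold change lay between 1.23 and 1.64. The annotation places 11.6% of the exon bases of Loxl3 over Htra2, a mitochondrial protease gene on the opposite strand, and whether the libraries kept the strand is not given in the sources used here. Htra2 itself had 1553 ± 447 normalized counts in Control and 1335 ± 223 in Notch3IC (SD, n = 4 each), and was not called (log2 fold change -0.22, edgeR adjusted p = 0.633).

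**Figure D1:**
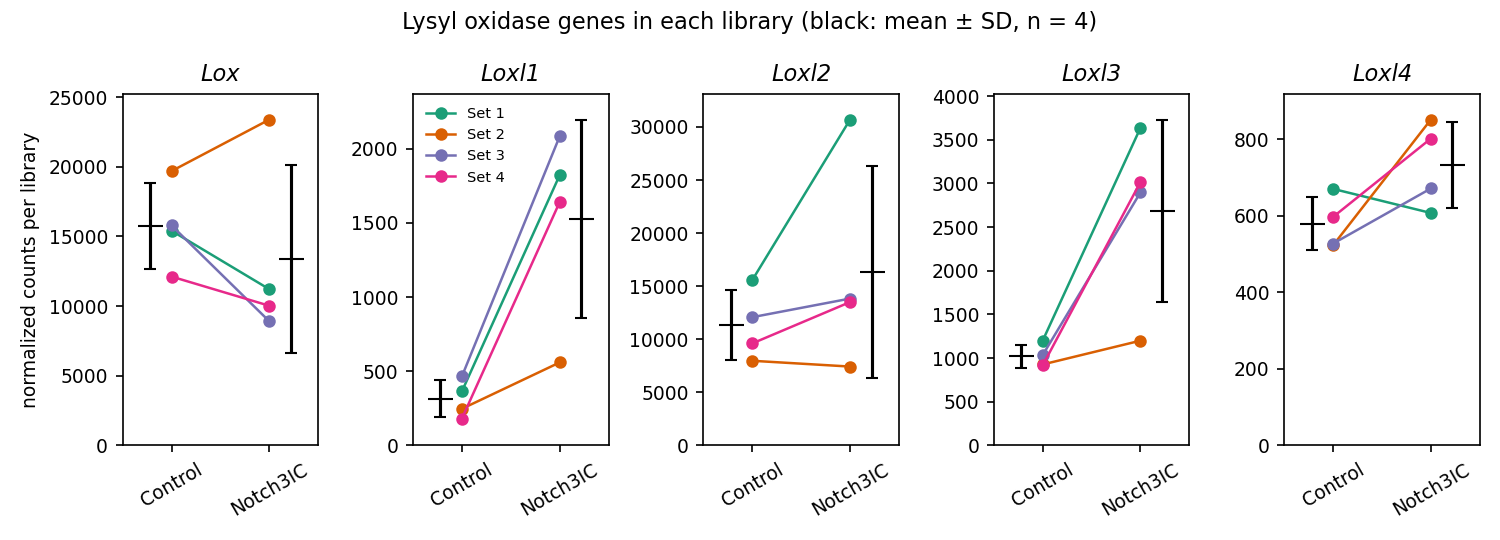
Normalized counts of each lysyl oxidase gene in the 8 libraries (vertical axis, one linear scale per gene starting at 0), with a colored line joining the Control and Notch3IC libraries of a set and black bars for the mean ± SD of 4 libraries. Loxl1 and Loxl3 climb in all 4 sets and least in Set 2, whereas those of Lox, Loxl2 and Loxl4 run both up and down.

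Lox, the founding member, which cross-links collagen and elastin, was not called in either direction. The 4 Control libraries held 15407, 19689, 15787 and 12117 normalized counts and the 4 Notch3IC libraries 11210, 23386, 8906 and 10023. In Sets 1, 3 and 4 Lox was lower in Notch3IC, at 0.728, 0.564 and 0.827 times the matched Control, and in Set 2 it was higher, at 1.19 times. The groups overlapped, with the highest and the lowest values both in Notch3IC. The averages of 15750.0 ± 3100.0 and 13381 ± 6736 (SD, n = 4 each) differed by a log2 fold change of -0.24 (standard error 0.31, 95% interval -0.95 to 0.48, edgeR adjusted p = 0.756). Without Notch3IC Set 2 the log2 fold change was -0.65, and its adjusted p of 0.0635 passed the threshold while the change stayed under the fold-change limit. Lox lies on chromosome 18 of GRCm38 from 52516067 to 52529867, on the minus strand, with 7 exons.

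Loxl2, which oxidizes collagen IV among other targets and is known as a partner of Snail in epithelial-mesenchymal transition, was not called either. Control Sets 1 to 4 had 15581, 7974, 12081 and 9611 normalized counts, and Notch3IC Sets 1 to 4 had 30695, 7429, 13835 and 13506. Set 1 had the highest value of each condition and Set 2 the lowest. The Notch3IC level was 1.97, 0.932, 1.15 and 1.41 times the matched Control in Sets 1 to 4. The averages of 11312 ± 3309 and 16366 ± 9996 (SD, n = 4 each) gave a log2 fold change of 0.53 (standard error 0.41, 95% interval -0.39 to 1.46, edgeR adjusted p = 0.546). Without Notch3IC Set 1 the log2 fold change was 0.04, and Loxl2 was called in none of the fits with a library or set left out. Exon bases of Loxl2 overlap an annotated antisense gene, Gm27177, by 5.57%.

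Loxl4, the remaining member with scavenger receptor domains, had the smallest coefficient of variation of the 5 in both conditions, 11.99% in Control and 15.4% in Notch3IC. The Control libraries held 670, 523, 527 and 597 normalized counts and the Notch3IC libraries 607, 851, 671 and 801. Sets 2, 3 and 4 were higher in Notch3IC, and Set 1 was lower. The averages of 579 ± 69.4 and 732 ± 113 (SD, n = 4 each) differed by a log2 fold change of 0.34 (standard error 0.14, 95% interval 0.02 to 0.66). Its unadjusted p in edgeR's test was 0.0393 and its adjusted p 0.241, so it was not called. Without the whole of Set 1 the adjusted p was 0.0844 and the log2 fold change 0.49, too small for a call. Of the 5 genes only Loxl4 was matched in the RefSeq table of promoters, from 250 bases before to 50 bases after the start. The motif GTGGGAA, the core of the site bound by Rbpj, was searched on both strands. It was not found in the Loxl4 window, and 6.38% of 32851 windows of that length held it.

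The ratios within sets set the 2 called members apart from the other 3. Loxl1 and Loxl3 had log2 ratios above 0 in all 4 sets, as did 20.97% of all genes tested. The lowest log2 ratio of each was in Set 2, at 1.18 for Loxl1 and 0.37 for Loxl3, and the highest in Set 4, at 3.17 and 1.72. A lowest ratio in Set 2 is not particular to them. Every gene called higher in the related lists below had it too, such as Bmp1 at 0.40 and Snai2 at 0.90. Loxl4 ran the other way, with its highest log2 ratio of 0.70 in Set 2 and its lowest of -0.14 in Set 1. Lox was above 0 in 1 of 4 sets, and Loxl2 and Loxl4 in 3 of 4. Intervals for counting error alone (95%, exact binomial) excluded 0 in every set for every member except Loxl4 in Set 1, from -0.31 to 0.02. These intervals leave out the spread between cultures, and no test between sets is possible with 1 library per condition in each. Raw counts ran from 207, for Loxl1 in the Control library of Set 2, to 27462, for Loxl2 in the Notch3IC library of Set 1, a counting error of 6.95% to 0.603%.

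**Figure D2:**
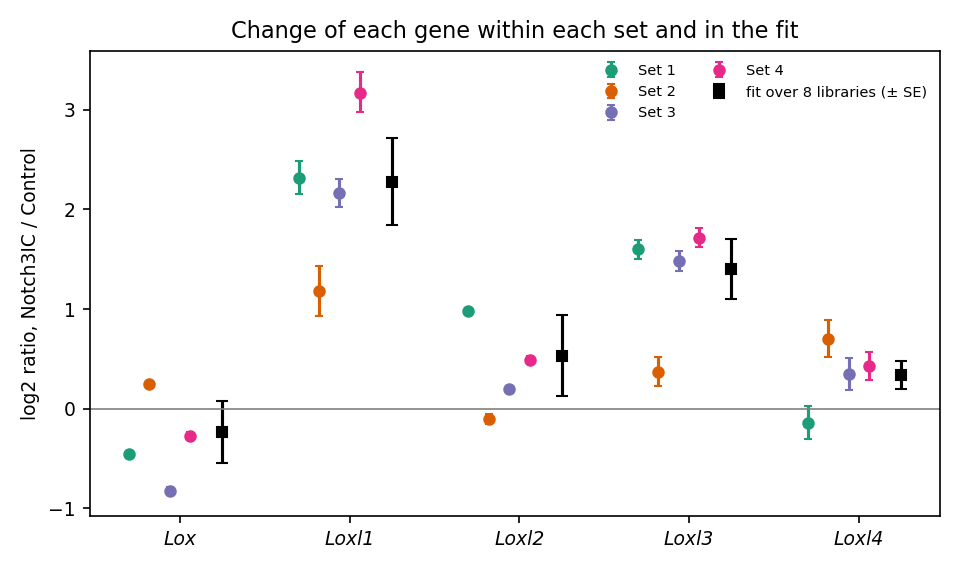
Log2 ratio of Notch3IC to Control for each lysyl oxidase gene (vertical axis), as colored points for Sets 1 to 4 with 95% counting intervals and as a black square for the fit over 8 libraries with its standard error. The Loxl1 and Loxl3 points all lie above 0, with Set 2 lowest, at 1.18 and 0.37.

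The same Set 2 had the smallest rise of the transgene and of its targets. In Sets 1 to 4 Notch3 was at 39, 34, 74 and 53 counts in Control and at 3864, 319, 10026 and 6915 in Notch3IC. Its normalized mean was 48.0 ± 15.3 in Control and 4959.7 ± 3627 in Notch3IC (SD, n = 4 each), with a log2 fold change of 6.69 (standard error 0.88, edgeR adjusted p = 0.0169). Reads of the transgene and of the endogenous gene are counted as 1. Hey1, a transcriptional repressor induced by Notch, had log2 ratios of 7.08, 4.40, 7.55 and 7.86, and Nrarp, a feedback inhibitor of Notch, 8.16, 4.46, 7.47 and 7.12. Heyl, another Notch target, had 2, 0, 2 and 0 counts in Control and 1927, 147, 7460 and 4628 in Notch3IC. All 4 genes were called higher (edgeR adjusted p = 0.0169 each). Like nearly all genes, they were not called when Set 3 or Set 4 was left out, where the adjusted p of Notch3 was 0.215 or 0.221 and its log2 fold change 6.45 or 6.54.

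Per kilobase of exon, Lox and Loxl2 made up most of the lysyl oxidase message in both conditions. In Control the order of mean levels was Lox at 3296 ± 649, Loxl2 at 2093 ± 612, Loxl3 at 222 ± 28.6, Loxl4 at 137 ± 16.5 and Loxl1 at 95.5 ± 38.2 normalized counts per kilobase (SD, n = 4). Neighbors in that order overlapped between Lox and Loxl2, although Lox was the higher in 4 of 4 libraries, and between Loxl4 and Loxl1, where Loxl1 was the higher in 1 of 4. In Notch3IC the order was Loxl2 at 3028 ± 1849, Lox at 2801 ± 1410, Loxl3 at 584 ± 227, Loxl1 at 463 ± 203 and Loxl4 at 174 ± 26.8 (SD, n = 4). There Lox exceeded Loxl2 in 1 of 4 libraries, that of Set 2, and Loxl1 exceeded Loxl4 in 3 of 4. The ranges of Loxl2 and Lox, of Loxl3 and Loxl1 and of Loxl1 and Loxl4 overlapped in Notch3IC, so these neighbors were not separated beyond their spread.

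As shares of the family sum, Lox took 48.6%, 68.7%, 54.8% and 53.8% of Control Sets 1 to 4 and 24.7%, 70.9%, 31.9% and 35.3% of Notch3IC Sets 1 to 4. The Lox share was smaller in Notch3IC in Sets 1, 3 and 4 and slightly larger in Set 2. The share of Loxl1 was 1.61 ± 0.537% in Control and 6.86 ± 3.58% in Notch3IC, and that of Loxl3 was 3.81 ± 0.365% and 8.47 ± 3.36% (SD, n = 4). Loxl2 held 35.7 ± 7.94% and 41.4 ± 16.4%, and Loxl4 2.39 ± 0.441% and 2.59 ± 0.744%. The summed level of the family was 6638, 5996, 6031 and 4710 normalized counts per kilobase in Control and 9512, 6901, 5844 and 5940 in Notch3IC. Thus the sum was higher in Notch3IC in Sets 1, 2 and 4 and lower in Set 3. Shares of 1 sum move against each other by construction, and they were not tested.

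**Figure D3:**
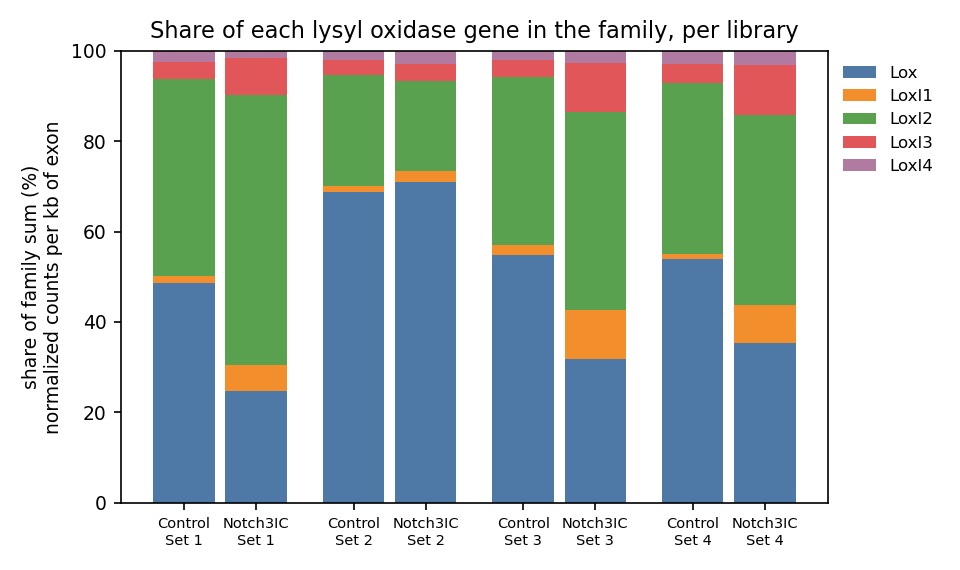
Share of each lysyl oxidase gene in the family sum of normalized counts per kilobase of exon (vertical axis, percent), with a stacked bar for each of the 8 libraries ordered by set. The Lox block shrinks from 48.6% to 24.7% in Set 1 and holds at 68.7% and 70.9% in Set 2, while the Loxl1 and Loxl3 blocks widen most in Sets 3 and 4.

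Across the 8 libraries Loxl1 and Loxl3 followed each other closely, with a Pearson correlation of 0.957 between their log2 values, scaled to library size. Lox ran opposite to Loxl3 (-0.726) and Loxl1 (-0.622), and Loxl2 lay nearer to Loxl3 (0.729) than to Lox (-0.602). Among 12429 other genes, those most like Loxl1 were Socs2, an inhibitor of cytokine signaling (0.991), Jak1, a cytokine receptor kinase (0.989), and Zfp362 (0.988). Those most like Loxl3 were Filip1l (0.996), the kinase Taok3 (0.994) and the zinc finger gene Zfp703 (0.992). Of these 6 genes, Socs2 (log2 fold change 1.85), Zfp362 (1.03) and Zfp703 (1.45) were called higher, against 3.4% of all genes tested. For Lox the leading genes were Cdhr1 (0.983), Rab3gap1 (0.980) and Syn3 (0.973), and for Loxl2 they were 4921524J17Rik (0.973), Mfap3l (0.966) and Zdhhc18 (0.966). Loxl4 had the loosest company, led by the kinase Vrk1 (0.918), Thoc7 (0.910) and Efcab2 (0.900). None of the leading genes of Lox, Loxl2 or Loxl4 was called. Genes picked by likeness to a member in these libraries tend to share its change, so their calls are no further evidence about it. All correlations are over 8 libraries that share the 2 conditions and the 4 sets, and describe likeness of pattern alone.

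Genes that act with lysyl oxidases, or are related to them more loosely, were read from 10 lists. These hold 95 genes besides the family, 80 of them tested. The looser lists are TGF-beta and hypoxia response genes, genes of epithelial-mesenchymal transition and other copper amine oxidases. Of the 80, 14 were called higher and 1 lower, against 3.4% and 0.74% of all genes tested. The lists were chosen with earlier results of these data known, so these shares are no test of the lists. With the set as a term the calls were 22 and 2, against 5.19% and 2.53% of all genes. DESeq2, run without the expression filter, called 21 higher and 2 lower, among them all 15, against 5.07% and 1.38% of the 13958 genes to which it gave an adjusted p. The edgeR calls moved with single libraries, as did those over all genes. Without Control Set 3 the lists had 2 genes higher and 0 lower, against 0.596% and 0.0636% of all genes. Without Control Set 4 they had 3 and 0 (0.789% and 0.0877% of all genes), without Notch3IC Set 3 they had 9 and 0 (1.61% and 0.232%), and without Notch3IC Set 4 they had 5 and 0 (1.24% and 0.128%). Without Notch3IC Set 2 they had 22 and 3, against 5.58% and 2.42% of all genes. Among proteases that cut lysyl oxidase proenzymes, their enhancers and copper carriers, 3 of 12 tested genes were called higher, none was called lower, and the median log2 fold change was 0.63. Bmp1, the protease that releases active Lox, rose from 1736 ± 301 to 5255 ± 2170 normalized counts (SD, n = 4 each), with 2042, 1923, 1590 and 1387 in the Control libraries and 7825, 2541, 5055 and 5599 in the Notch3IC libraries. The Bmp1 groups did not overlap, with Notch3IC the higher, as in 7.08% of all genes tested. Its log2 fold change was 1.60 (standard error 0.31, edgeR adjusted p = 0.0359). Adamts2, a procollagen protease that also cuts lysyl oxidases, rose by a log2 fold change of 2.06 (adjusted p = 0.0247), from 1228 ± 297 to 5119 ± 2026. Postn, which encodes periostin, a matrix protein that brings Bmp1 to its substrates, had 64, 11, 8 and 4 counts in Control and 3640, 190, 1385 and 1991 in Notch3IC (log2 fold change 6.4, adjusted p = 0.0250). The most abundant gene of the list, Fn1, which encodes fibronectin, had 139387 ± 22699.8 and 295852 ± 122127 normalized counts and was not called (log2 fold change 1.09, adjusted p = 0.134). Atox1, a copper chaperone, had the lowest log2 fold change, 0.02. With the set as a term Thbs1, which encodes thrombospondin 1, joined the 3 (log2 fold change 1.83 and adjusted p = 0.176 without it, 0.0215 with it), and in DESeq2 Thbs1 (adjusted p = 0.0234) and Fn1 (0.0194) did. The adjusted p was above 0.1 without Control Set 3 for Bmp1 (0.118), Adamts2 (0.103) and Postn (0.104), without Control Set 4 for Bmp1 (0.130) and Postn (0.102), and without Notch3IC Set 4 for Bmp1 (0.112).

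Among the fibrillar collagens and elastin, on which lysyl oxidases act, 2 of 9 tested genes were called higher and none lower. Over all genes tested the shares were 3.4% and 0.74%. The median log2 fold change of the list was 1.01. Col5a3, a collagen V chain, rose from 113 ± 103 to 2459.7 ± 1854 normalized counts (SD, n = 4 each), with a log2 fold change of 4.46 (edgeR adjusted p = 0.0382), and Col3a1, the collagen III chain, by a log2 fold change of 1.30 (adjusted p = 0.0818). The most abundant, the collagen I chain Col1a1, had 88044 ± 37794 and 177014 ± 62746 normalized counts and was not called (log2 fold change 1.01, adjusted p = 0.166). Col24a1 had the lowest log2 fold change, -0.02. With the set as a term 6 genes of this list were called higher, against 5.19% of all genes. Those besides Col3a1 and Col5a3 were Col1a1, Col1a2, Col5a1 and Col27a1. DESeq2 called 5, adding Col1a2 (adjusted p = 0.0302), Col5a1 (0.0536) and Eln (0.0767) to the 2. It called 5.07% of all genes higher. Eln, which encodes elastin, was under the expression filter of the edgeR fit, at 0, 0, 8 and 2 counts in Control and 3, 5, 52 and 34 in Notch3IC. None of the 4 tested collagen IV chains was called in the edgeR fit with condition alone, with a median log2 fold change of 0.49, from -0.67 for Col4a6 to 1.84 for Col4a1 (adjusted p = 0.109), the most abundant of them. Col4a1 and Col4a2 were called higher with the set as a term and also by DESeq2 (adjusted p = 0.00487 and 0.0193), and Col4a1 without the expression filter (edgeR adjusted p = 0.0978). Both were also called in edgeR without Notch3IC Set 2 (adjusted p = 0.00385 and 0.00380), where 5 genes of the fibrillar list were called higher, against 5.58% of all genes. The adjusted p of Col5a3 was above 0.1 without Control Set 3 (0.111), Control Set 4 (0.122) or Notch3IC Set 4 (0.112), and that of Col3a1 was above it without any 1 library except those of Set 2, at 0.110 to 0.219.

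Lysine hydroxylation and collagen folding, which precede cross-linking, showed no called gene among 9 tested, with a median log2 fold change of 0.30. Plod1, a lysyl hydroxylase, had the highest, 0.63, and its edgeR adjusted p of 0.0846 passed the threshold under the fold-change limit. The most abundant was the collagen chaperone Serpinh1 (log2 fold change 0.08), and the lowest was P3h4, counted under its older symbol Leprel4 (-0.14). Of 12 tested genes of elastic fiber scaffolds, 3 were called higher and none lower, against 3.4% and 0.74% of all genes tested. The median log2 fold change of this list was 0.53. Fbn1, which encodes fibrillin-1, the main microfibril protein, rose from 4782 ± 1656 to 14117 ± 5101 normalized counts (SD, n = 4 each), with a log2 fold change of 1.56 (adjusted p = 0.0435). Fbln1, a fibulin, rose from 44.9 ± 17.9 to 117 ± 28.6 (log2 fold change 1.39, adjusted p = 0.0610). Mfap2, a microfibril protein, was called higher (adjusted p = 0.0590) from 0, 5, 2 and 2 counts in Control and 12, 12, 12 and 34 in Notch3IC, too few for a firm fold change. Fbln2, the most abundant, was not called (log2 fold change 0.82, adjusted p = 0.487), nor was Efemp1, the lowest (-1.47, adjusted p = 0.143), which was called lower with the set as a term and by DESeq2 (adjusted p = 0.0184). The adjusted p of Fbn1 and Mfap2 was above 0.1 without Control Set 3 (0.131 and 0.179), Control Set 4 (0.143 and 0.201) or Notch3IC Set 4 (0.137 and 0.189), and that of Mfap2 also without Notch3IC Set 3 (0.114). That of Fbln1 was above it without either of the same Control libraries (0.179 and 0.168) or without the Notch3IC libraries of Sets 1 (0.116) and 4 (0.169).

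Collagen-binding proteins that steer cross-linking gave 2 of 5 tested genes called higher and none lower, against 3.4% and 0.74% of all genes tested. Their median log2 fold change was 0.38. Fmod, which encodes fibromodulin, a collagen-binding proteoglycan that also binds Lox, had 51, 72, 38 and 41 counts in the Control libraries and 5612, 984, 12861 and 10304 in the Notch3IC libraries. Every Notch3IC library of Fmod lay above every Control library, as in 7.08% of all genes tested. Its log2 fold change was 7.13 (standard error 0.73, edgeR adjusted p = 0.0151), and the call was kept with any single library left out. Bgn, which encodes biglycan, rose from 12327 ± 5094 to 39815 ± 14289.6 normalized counts (SD, n = 4 each), with a log2 fold change of 1.69 (adjusted p = 0.0464). Sparc, the most abundant, had a log2 fold change of 0.38 and Dcn, which encodes decorin, -0.47, and neither was called. The adjusted p of Bgn was above 0.1 without Control Set 3 (0.146) or Set 4 (0.139), or Notch3IC Set 3 (0.117) or Set 4 (0.136). Col3a1, Fbln1, Tgfb1 and Zeb2 also lost their call without the whole of Set 1. Without the whole of Set 3 or Set 4, where at most 1 gene of the whole table was called, neither Fmod nor any other gene of these lists was called, although the log2 fold change of Fmod was 6.63 or 6.84.

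Of 9 tested genes of the TGF-beta response, a known inducer of lysyl oxidases, 2 were called higher and none lower. Their median log2 fold change was 0.93. For this list and those that follow, 3.4% of all genes tested were called higher and 0.74% lower. The 2 called genes were ligands. Tgfb1 had 691 ± 150 normalized counts in Control and 1944 ± 819 in Notch3IC (SD, n = 4 each), with a log2 fold change of 1.49 (edgeR adjusted p = 0.0508), and Tgfb2 1003 ± 295 and 3208 ± 1344 (log2 fold change 1.68, adjusted p = 0.0316). Skil, a feedback inhibitor, had the lowest log2 fold change, -0.07. With the set as a term, where 5.19% of all genes were called higher, Tagln joined the 2 ligands. Of 11 genes induced by hypoxia, another known inducer of Lox, Egln3, an oxygen-sensing prolyl hydroxylase, was the single call, and it was lower (791 ± 194 and 337 ± 94.8, log2 fold change -1.23, adjusted p = 0.0337). Its 4 Notch3IC libraries all lay below its Control libraries, as in 3.75% of all genes tested. The median of this list was -0.19, with Ldha (-0.19) the most abundant and Ankrd37 (0.27) the highest, neither of them called. Among 9 genes of epithelial-mesenchymal transition, which is tied to Loxl2 and Loxl3, the repressors Snai2 (log2 fold change 2.30, adjusted p = 0.0169) and Zeb2 (1.26, adjusted p = 0.0486) were called higher and none lower, with a median of 0.48. Vim, the most abundant (0.43), and Cdh1, the lowest (-0.48), were not called. Snai2 was called with any single library left out. The adjusted p of Tgfb1, Egln3 and Zeb2 was above 0.1 without the Control or the Notch3IC library of Set 3 or Set 4, at 0.105 to 0.170, and that of Tgfb2 without Control Set 3 (0.111) or Set 4 (0.124). Aoc2, the 1 tested gene of 3 other copper amine oxidases, was at 65.8 ± 11.6 and 66.4 ± 22.3 normalized counts (log2 fold change 0.01).

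**Figure D4:**
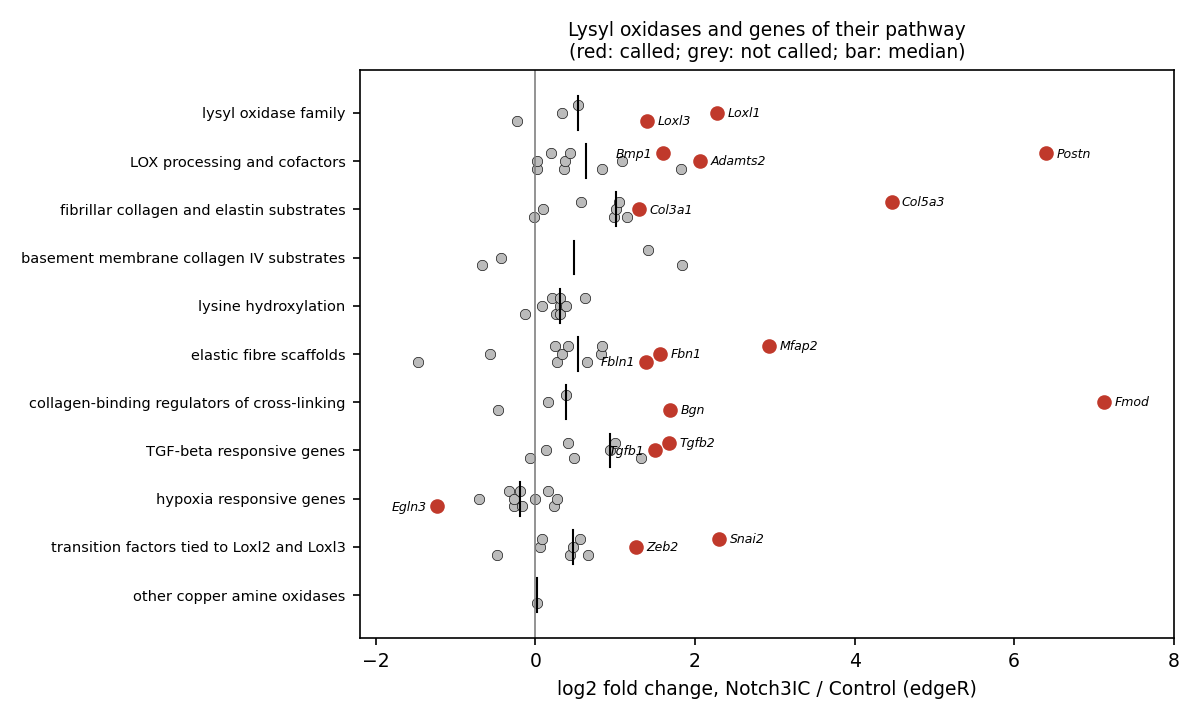
Log2 fold change of Notch3IC against Control in edgeR (horizontal axis) for each tested lysyl oxidase gene and each tested gene of the 10 related lists (rows), with called genes in red and named, other genes in grey and a bar at each list's median. The list medians run from -0.19 for hypoxia genes to 1.01 for fibrillar collagens, and Fmod at 7.13 and Postn at 6.4 lie farthest to the right.

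The labelled tissue is ovarian surface epithelium, and 7 of 8 markers of that epithelium and of mesothelium were tested. Their summed level was lower in Notch3IC in every set, at 21946, 41276, 66152 and 63752 normalized counts in Control and 7024, 26331, 24456 and 18820 in Notch3IC. On average Upk3b was the most abundant of them. Msln, which encodes mesothelin, was called lower (log2 fold change -2.60, edgeR adjusted p = 0.0625), and DESeq2 also called Krt7, Krt19 and Upk3b lower. Krt7 was under the expression filter of the edgeR fit, at 5, 2, 46 and 7 counts in Control and 1, 1, 2 and 2 in Notch3IC. Its call thus rests on few counts, mostly those of Control Set 3. Of 4 markers of other epithelium, Epcam had 12 counts or fewer in any library and Pax8 had 3 or fewer. Muc1 had 15 to 61 counts and Cdh1 55 to 805, and neither was called in the edgeR fit. Of 6 leukocyte markers, Ptprc had at most 2 counts in any library and Cd3e had 0 in each, and the summed level was 56.5 to 127 normalized counts in Control and 82.0 to 121 in Notch3IC. Cd68 made up most of it in 7 of 8 libraries, and in the Notch3IC library of Set 1 it had 34.6 normalized counts against 40.2 for Csf1r. Csf1r was called higher, from 8.67 ± 2.38 to 24.7 ± 11.01 (SD, n = 4 each; adjusted p = 0.0719). Of 4 endothelial markers, Cdh5 and Tek had at most 3 counts, and the sum stayed at 50.3 normalized counts or fewer, mostly from Pecam1 and Kdr together. Among 5 fibroblast markers Thy1 had at most 3 counts and Lum at most 4, while the sum, mostly Col1a1, was 64630 to 143323 in Control and 131103 to 267004 in Notch3IC, higher in Notch3IC in each set. Dcn of that list was lower in Notch3IC in each set, with log2 ratios of -0.81, -0.53, -0.42 and -0.39, and Pdgfra was lower in Set 2 and higher in the other sets, and neither was called. The part of these changes in the rise of Loxl1 and Loxl3 was not tested.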

How the data were processed

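Polyadenylated RNA of 8 ID8 IP2 lines (TruSeq) was sequenced as single-end reads of 100 bases. The counts were made by the authors, who aligned reads with TopHat and counted them with Cufflinks. The authors deposited raw counts per gene symbol without normalization. The submitters' processing notes name mm9, and versions, annotation and strandedness are not given in the sources used here. Symbols were placed on GRCm38 (GENCODE M21), whose exon lengths serve the levels per kilobase.

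Notch3IC was compared with Control in edgeR 4.0.16 (R 4.3.3; TMM, filterByExpr, robust quasi-likelihood F test, condition as the only term), with Benjamini-Hochberg adjustment over the 12430 genes tested. Counts were normalized by scaling each library to the mean effective (TMM) size. Ratios within sets use a pseudocount of 0.5, and correlations log2 CPM with a prior count of 2. The standard error is the log2 fold change divided by the square root of F. The biological coefficient of variation was 26.3%, or 14.1% with the set as a term. Sets are matched pairs per the paper, and deviations from the group means correlated within Sets 1 to 4 at 0.804, 0.398, 0.565 and 0.409, against -0.501 to 0.372 for crossed pairs.

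Alternatives were DESeq2 1.42.0, other normalizations, filters and thresholds, the set as a block, and each library or set left out. Named genes of a list are its called genes, the most abundant, and the highest and lowest log2 fold changes. Some items that this rule names are not reported here. Genes called only with the set as a term, Eln and single marker genes were named with their values known. The 5 members and the lists were chosen with earlier results of these data known. Figures were drawn with Matplotlib 3.10.9 in Python 3.11.15.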

Additional observations from a re-analysis of the deposited data

Results flagged for a closer look

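In 20 groups of 4 libraries (the 5 lysyl oxidases, the 4 Notch genes and the library totals, in each condition) a library far from the other 3 was looked for, by Dixon's test at 95% on the gap to the nearest library relative to the range of all 4, where chance gives about 1 in 20. The Notch3IC library of Set 2 was such a library for Lox, at 23386.4 normalized counts (gap 0.841 of the range), and the Control library of Set 3 for Notch3, at 70.786 (0.896).

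For Lox and Loxl2, Set 2 moved against the other 3 sets beyond counting error. The log2 ratio of Lox was -0.458812, -0.825805 and -0.273753 in Sets 1, 3 and 4 and 0.248291 in Set 2. The log2 ratio of Loxl2 was 0.978168, 0.195543 and 0.490864 in Sets 1, 3 and 4 and -0.102205 in Set 2. The 95% counting intervals of all these ratios excluded 0. Loxl4 was also lower in Set 1 alone, at -0.14, but there the interval included 0. The difference between sets was not tested, since each set has 1 library per condition.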

How the results depend on the processing

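Lox, Loxl2 and Loxl4 kept their direction and were not called in any of 21 alternatives. Loxl1 and Loxl3 kept their direction in the same 21 and were called in all that used the 8 libraries. With a library or set left out, Loxl1 lost its call in 5 fits and Loxl3 in 7, with log2 fold changes of 2.05468 to 2.55263 and 1.22719 to 1.64022, so that 0 to 2 lysyl oxidases were called higher. Over all genes, 423 were called higher and 92 lower. DESeq2 gave 707 and 192, and the replicate block 645 and 315. An adjusted p under 0.05 left 48 lower, and no fold-change limit gave 210 lower. Leaving out a library or set gave 0 to 702 higher and 0 to 305 lower. The cause of these shifts was not tested. The block changed no call of a lysyl oxidase. Unadjusted p values under 0.05 were found for 2289 genes. The share of Loxl3 in Control was 3.81% by exon length and 4.20% by longest transcript. Depth limits Loxl1 most, at 207 counts in its lowest library.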
